A study of Mus musculus with 26 samples.

Results

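Myog encodes myogenin, and the chromatin around it on mouse chromosome 1 was read here in every peak list of the series. All peaks between positions 136135000 and 136240000 of build mm9 were taken, a window of 105 kb, without regard to their scores. The window held 74 of the 762764 peaks in the 16 lists: 20 SMC3 peaks, 44 ATAC peaks and 10 ChIRP summits. The gene itself was given as lying near 136186000 to 136190000, called the gene interval here, and 12 of the 74 peaks touched it.

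The cells were C2C12, an established mouse myoblast line that stops dividing and fuses into myotubes when serum is withdrawn. Per the labels, it was grown in 20% fetal serum and differentiated in 2% horse serum with insulin, transferrin and selenium. Cohesin was mapped by ChIP-seq with an antibody to its SMC3 subunit in myoblasts, in myotubes and in myotubes transfected with siDRR, an siRNA against the DRR RNA. The labels give no transfection for the myoblast and myotube libraries. Open chromatin was mapped by ATAC-seq, a transposase assay, in myotubes transfected with control siRNA, siDRR or siSmc3. Contacts of the DRR RNA were mapped in myotubes by ChIRP-seq, which captures an RNA on crosslinked chromatin with tiled probes, here as probe pool 1 and probe pool 2. Each of these 8 groups had n = 2 libraries, and nothing in the labels says that these came from separate cultures, so differences between them may be technical. No RNA level of Myog, DRR or Smc3 was analysed here.

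Myogenin is a basic helix-loop-helix transcription factor that switches committed myoblasts into terminal differentiation. It binds E-boxes as a dimer with an E protein. The DRR is a distal enhancer of Myod1, which encodes the related factor that starts the program, and it is transcribed into an enhancer RNA. Myod1 and Myog lie on different chromosomes, so contact of this RNA with Myog would be contact away from its own locus. Cohesin is a ring complex that holds chromatin loops and sister chromatids, and SMC3 is part of the ring.

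In RefSeq's order on GRCm38.p6, Myog is preceded by Adora1 (an adenosine receptor), Gm32221, Gm24517 and Myoparr, a long noncoding RNA transcribed just upstream of Myog, and followed by Ppfia4 (a liprin scaffold protein), Gm32267 and Tmem183a. These positions are on another build and were not carried over to mm9, so peaks outside the gene interval are given by distance and not by gene. The Myog promoter is shown because SMC3, ATAC and ChIRP peaks all met in the gene interval. It comprises 250 bases before and 50 after the RefSeq start, plus strand (GRCm38.p6 chr1:134289754-134290053, not comparable with the mm9 positions used elsewhere). Capitals mark E-boxes (CANNTG, the same on both strands), a MEF3 site (TCAGGTT, both strands searched), and a MEF2 core (CTANNNNTA, both strands searched), the motif bound by MEF2 factors.
Myog promoter: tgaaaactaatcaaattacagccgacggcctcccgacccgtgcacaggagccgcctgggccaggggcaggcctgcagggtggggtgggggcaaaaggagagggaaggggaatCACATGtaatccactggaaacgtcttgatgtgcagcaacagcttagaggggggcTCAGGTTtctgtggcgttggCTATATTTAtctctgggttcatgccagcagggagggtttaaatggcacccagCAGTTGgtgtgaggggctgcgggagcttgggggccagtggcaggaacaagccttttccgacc

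The E-boxes began at -138 and -12 from the start, the MEF3 site at -84 and the MEF2 core at -64, and none of the matches overlapped another. At least 1 E-box stood in 72.3% of 32851 promoters of the same length and at least 2 in 39.6%, a MEF2 core in 21% and a MEF3 site in 4.07%. All 3 motifs together were found in 0.746%. The full MEF2 consensus had 0 matches in the Myog promoter, and the shorter core was searched after that was known. Of 19 listed genes of the myogenic program 13 had a promoter in the table, and 8 of them held an E-box, 7 a MEF2 core and 3 a MEF3 site in at least 1 promoter. Myog was 1 of 1 gene of the list with all 3 motifs in the same promoter. Because the MEF2 core was chosen after the Myog promoter had been searched, this count and the 0.746% are descriptions only. These matches are letters in a sequence, not binding sites.

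**Figure D1:**
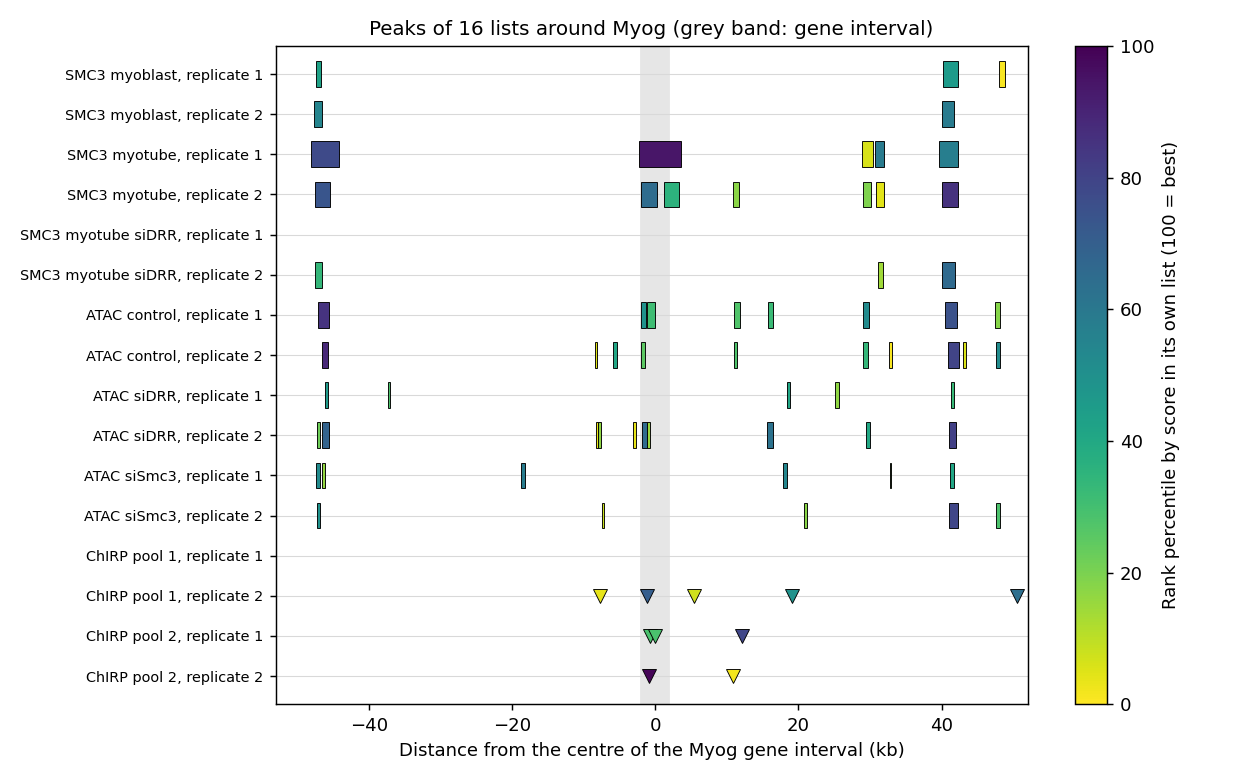
All 74 peaks of the window by library (rows), against the distance in kb from the centre of the Myog gene interval (grey band); boxes are SMC3 and ATAC peaks at true width, triangles are ChIRP summits, and colour is the rank percentile in the peak's own list. An SMC3 box fills the grey band in the first myotube row, and 2 boxes cover 72.2% of it in the second. No myoblast or siDRR row has an SMC3 box there.

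SMC3 peaks were called over Myog in both myotube libraries and in neither myoblast library. In the first myotube library a single peak at 136185772 to 136191545 covered the whole gene interval (100%). It was the peak of rank 831 among 15056 by score, a rank percentile of 94.5, where 100 is the best in the list, and its 5774 bp put it at the 99.8th percentile of widths. In the second myotube library 2 peaks, separated by 1044 bp, covered 72.2% of the interval, and the better of them ranked 9385 among 26765, a percentile of 64.9. Both myotube libraries thus had SMC3 over the gene, as 1 unbroken peak of higher rank in the first.

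The myoblast libraries held no SMC3 peak in the interval although their lists were longer, at 30955 and 33154 peaks. Their nearest peaks lay 44647 and 44512 bp before it and 38199 and 38046 bp after it. Coverage of the interval was 86.1% ± 19.7 in myotubes against 0% ± 0 in myoblasts (SD, n = 2 each), and an exact permutation test over libraries, two-sided, gave p = 0.333. That is the smallest p 2 libraries against 2 can give, so no difference at the gene interval can pass a threshold of 0.05 here.

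Over the genome, few SMC3 regions behaved this way. Overlapping peaks from the 4 libraries of a comparison were joined into regions, and a region was called gained when both libraries of the second group and neither of the first held it, and lost in the opposite case. On differentiation 0.789% of 42567 regions were gained, and 2.43% of the regions held by both myotube libraries. The window held 7 of these regions, of which 5 were in both myotube libraries and 3 were gained. Only 2 of the 7 were in both myoblast libraries and could have been called lost. Neither was. Over all merged regions 12.8% were lost, but that share also counts regions not in both myoblast libraries. The share among regions of both myoblast libraries was not taken, and 2 regions are too few to compare. Beside the Myog region the gained regions lay at 136216858 to 136218408 and at 136218755 to 136219976, with centres 29.6 and 31.4 kb from that of the gene interval. The first of these was weak in both myotube lists, at percentiles of 6.13 and 19.2. The second stood at 58.6 and 4.46, so its call in the second library was near the end of that list.

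A rank like that of Myog usually went with a myoblast peak. Of 2003 myotube SMC3 regions whose mean percentile lay within 5 points of the Myog region's 79.7, 99.4% were called in the first myoblast library and 99.6% in the second. Only 0.349% were called in neither, which is 7 regions, Myog included. These bands were set after the values at Myog were known and describe the lists.

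SMC3 peaks did not stand alone in the window. A region before the gene (136139939 to 136143817) and a region after it (136227674 to 136230324) were each called in 5 of 6 SMC3 libraries, with 83.9 kb between them. The Myog region lay 42.0 kb from the former and 36.1 kb from the latter. The region before the gene stood at percentiles of 42.3 and 54.4 in myoblasts, 77.5 and 73.7 in myotubes, and 34.0 in the second siDRR library. The region after the gene stood at 45.5 and 59.0 in myoblasts, 57.8 and 85.9 in myotubes, and 65.9 in the second siDRR library. In the first myotube library the Myog peak outranked both flanking peaks, and in the second it ranked below both. Another 2 regions, at 136198828 to 136199689 and 136236040 to 136236844, were each called in 1 library, the second myotube and the first myoblast library.

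The window as a whole held more SMC3 peaks in the myotube libraries. It had 3 and 2 peaks in the myoblast libraries, 5 and 7 in the myotube libraries, and 0 and 3 in the siDRR libraries. Peaks covered 3573 and 2811 bp of it in myoblasts and 15027 and 11684 bp in myotubes. Of 24599 tiles of the same length, 0.618% held at least 5 peaks in the first myotube list and 1.17% at least 7 in the second. In the myoblast lists 19.9% and 34.4% of tiles held at least as many peaks as the window did.

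**Figure D2:**
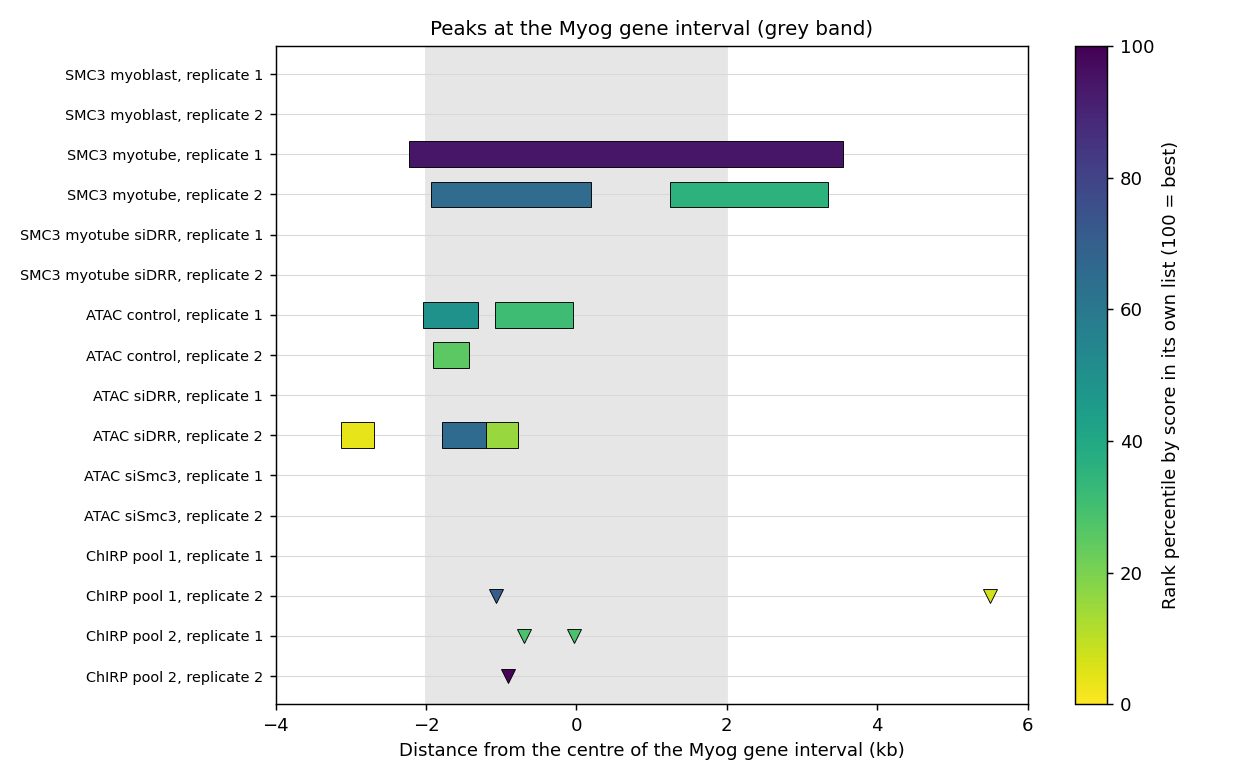
The gene interval (grey band) enlarged, with the same rows, boxes, triangles and colours and distance from its centre in kb on the x axis. All 4 ChIRP summits in the band fall inside the first box of each myotube SMC3 row, and the siSmc3 rows are empty.

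In myotubes with siDRR neither library had an SMC3 peak in the gene interval, so coverage was 0% ± 0 against 86.1% ± 19.7 (SD, n = 2 each; p = 0.333, two-sided exact permutation test, the smallest possible). The siDRR libraries were not alike. The first, with the shortest SMC3 list (8384 peaks), had no peak anywhere in the window, and its nearest peaks lay 92288 bp before and 75012 bp after the interval. Its flanking regions were therefore missing along with Myog. The second, with 23196 peaks, kept both flanking regions and a peak at 136219169 to 136219834, and lacked Myog. That library also lacked 2 weak peaks of the second myotube library, at 136198828 to 136199689 and 136217006 to 136218126. Both lie nearer to Myog than any peak it kept. The absence at Myog thus went with absences beside it, while both flanking regions were kept.

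Genome-wide 2.91% of 30797 regions were lost under siDRR, and 6.45% of those held by both myotube libraries. The window held 5 regions of both myotube libraries, of which 2 were lost: the Myog region and the weak region at 136216858 to 136218408. No region of the window was in both siDRR libraries, so none could be called gained, as were 0.13% of all regions. Among the 2003 regions of like mean rank, the first siDRR library called 74.5% and the second 99.8%. Just 3 of them (0.150%) were called in neither, Myog included. With both myotube percentiles held within 5 points of those at Myog, 49 regions remained, of which the first siDRR library called 29 and the second 47. Each myoblast library called 48 of them, all but Myog. Regions gained on differentiation were a weaker background. Of 336, 161 (47.9%) were in neither siDRR library, and of the 25 with a mean percentile of 60 or higher, 4 (16%) were. The shorter siDRR lists and a loss of SMC3 cannot be told apart for the gene interval in the first library. When every SMC3 list was cut to 8384 peaks, the second myotube library no longer called the interval, which ended the calls of gain and loss by both libraries.

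DRR ChIRP summits fell on the same stretch. Of the 10 summits in the window, 4 lay in the gene interval, from 3 of 4 libraries. The summit at 136187090 in replicate 2 of pool 2 ranked 224 among 20206, a percentile of 98.8. Replicate 1 of pool 2 had summits at 136187300 and 136187974, both at a percentile of 28.6, with a score shared by 2025 summits of that list. Replicate 2 of pool 1 had a summit at 136186925, at a percentile of 70.5, with a score shared by 832 summits of its list. Replicate 1 of pool 1, whose list had only 3776 summits, had none, and its nearest lay 154724 bp before the interval. The best rank thus came from pool 2, and support from pool 1 came from its longer list of 68812 summits alone. With ChIRP lists cut to an equal length of 3765 summits, only 1 of the 4 libraries had a summit in the interval.

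The 4 summits spanned 1049 bp, and the summits of replicate 2 of the pools were 165 bp apart. In replicate 2 of pool 1, 0.639% of 68233 summits had a summit of replicate 2 of pool 2 as close. In the other direction it was 2.16% of 20206. The distance was set by the closest summits of the 2 pools at Myog, so these shares are descriptions. With 250 bp added on each side of a summit and overlapping stretches merged, the Myog site was 1 of 472 called in exactly 3 libraries (0.485% of all regions), with another 0.104% called in all 4. The other 6 summits of the window were each isolated, and no other site of the window was called in more than 1 library. The second best rank in pool 2 was at 136200098, at a percentile of 79.3 in replicate 1, and no library of the other pool had a summit there. No LacZ or input list stood beside these values, so the background of the probes at Myog was not measured here.

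All 4 summits lay inside the SMC3 peak of the first myotube library, and all 4 inside the first of the 2 peaks of the second (136186070 to 136188200). None lay in the second of those peaks (136189245 to 136191349). Of the ATAC peaks in the interval, the one at 136186915 to 136187953 in the first control library held 3 of the 4 summits. The siDRR peak at 136186804 to 136187222 held 2, and the remaining 3 ATAC peaks, all nearer the low-coordinate end, held none.

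Across the genome, 161 of 43783 SMC3 regions had the pattern seen at Myog, with a peak in both myotube libraries and in no myoblast or siDRR library. The Myog region ranked first of the 161 by mean percentile (79.7, followed by 69.7, with a median of 22.8). It was also the widest, at 5774 bp against 4697 bp for the next and a median of 1271 bp. A ChIRP summit of pool 1 lay at 13 of the regions and one of pool 2 at 14, and Myog was 1 of 1 region with both. That is 0.621% of the 161. Of the 13836 SMC3 regions of both myotube libraries 51 (0.369%) met both pools, so 1 region shows no departure from that share. Width moved with this count: among the 13836, 194 were 5 kb or wider, and 7 of these (3.61%) met both pools. The part of width in the result at Myog was not tested. The pattern was chosen after the values at Myog were known, so its first place is a description. With the better-scoring 50% of each list it ranked 3 of 89. With lists of equal length Myog was not among 143 such regions. Without the first myotube library it ranked 5 of 2579 by percentile, with 172 regions as wide or wider, itself included, and 4 with both pools. Without the second myotube library, or without the second siDRR library, it stayed first by percentile, but 2 regions, itself included, were as wide or wider, and 2 had both pools, of 635 and 306. Without replicate 2 of pool 1 no region had both.

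**Figure D3:**
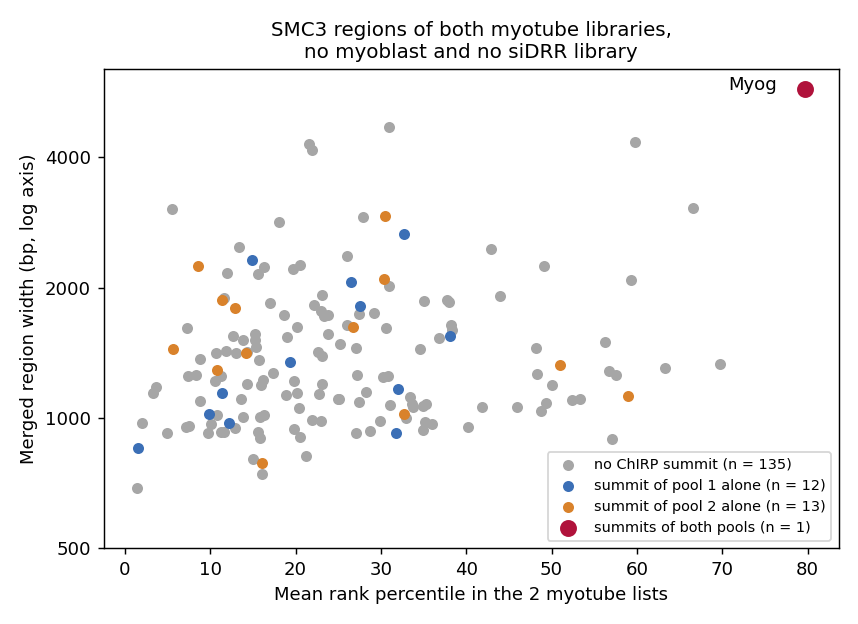
The 161 SMC3 regions called in both myotube libraries and in no myoblast or siDRR library, by mean rank percentile in the myotube lists (x axis) and merged width in bp (y axis, log scale); colours give the ChIRP pools with a summit within 250 bp. The Myog region stands at the upper right, at 79.7 and 5774 bp, with both pools.

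Chromatin at Myog was open in control myotubes at a modest rank. The first control library had ATAC peaks at 136185963 to 136186695 and 136186915 to 136187953, at percentiles of 49.4 and 31.2, and the second had 1 peak at 136186089 to 136186576, at 25.2. Together they covered 43.4% and 12.2% of the gene interval. Under siSmc3 neither library had a peak there. The nearest peak of the first lay 15826 bp after the interval, and that of the second 5071 bp before it. Coverage was 27.8% ± 22.0 in controls against 0% ± 0 under siSmc3 (SD, n = 2 each; p = 0.333, two-sided exact permutation test).

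Under siDRR the libraries disagreed at Myog. The first had no ATAC peak in the interval, with the nearest 16482 bp after it, and the second had peaks at 136186210 to 136186802 and 136186804 to 136187222. The percentile of the former, 65.6, was above both control values. Coverage was 12.6% ± 17.9 under siDRR against 27.8% ± 22.0 in the same controls (SD, n = 2 each; p = 0.667, two-sided exact permutation test), so the groups overlapped. With the better-scoring 50% of each list the direction turned, because that siDRR peak was kept and no control peak was.

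Loss of a peak at this rank was common. Among 2854 ATAC regions of both controls with a mean percentile within 5 points of Myog's 37.3, 22.5% were called in neither siSmc3 library and 19.2% in neither siDRR library. The first siSmc3 library called 34.1% of them and the second 73.4%. Over all regions of both controls 8.31% were lost under siSmc3 and 5.85% under siDRR, or 1.71% of 187972 and 1.31% of 171839 merged regions. The absence at Myog under siSmc3 was therefore not rare for a peak of this rank. With the better-scoring 50% of each list, neither control library called the interval and the loss ended.

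Elsewhere in the window both controls called 5 further ATAC regions. The region at 136198946 to 136199902, at percentiles of 27.4 and 28.1, was called in no knockdown library. It overlapped the SMC3 peak found in the second myotube library alone, and a pool 2 summit at 136198847 lay inside that SMC3 peak, at a percentile of 1.75. The region at 136216964 to 136217923, at 52.2 and 33.7 in controls, was missing in both siSmc3 libraries and called in the second siDRR library at 39.9. That is the same pattern of ATAC calls as at Myog, at the other SMC3 region that was gained on differentiation and lost under siDRR. Of the 161 regions described above, 67 met ATAC peaks of both controls and 12 of these met none of either siSmc3 library. Myog and this neighbour were 2 of the 12, although the neighbour's mean SMC3 percentile was only 12.7. The same count was not taken over other SMC3 regions. At the ATAC rank of Myog, 22.5% of regions of both controls were called in neither siSmc3 library, so a shared absence is no particular trait of these sites. The region at 136235527 to 136236220, at 18.1 and 51.9, was lost under siDRR and called in the second siSmc3 library at 28.2. In all, 3 of the window's 6 regions of both controls were lost under siSmc3 and 2 under siDRR. Over the genome 8.31% and 5.85% of regions of both controls were lost, and 6 regions are few to set against those shares. No ATAC region of the window was gained in either knockdown, against 1.93% of all regions under siSmc3 and 1.44% under siDRR. Only 2 regions of the window were in both libraries of each knockdown, and both controls held them, so none could be called gained. The knockdowns share their controls, so these are not independent counts.

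The flanking SMC3 regions held the best-ranked ATAC peaks of the window in both control lists. They were the only merged sites called in all 6 ATAC libraries, as were 9.74% of all ATAC regions. Each site was read by its best peak in each library, and such peaks need not overlap. The site before the gene (136140675 to 136142491) stood at percentiles of 85.5 and 88.8 in controls, 45.9 and 68.5 under siDRR, and 52.0 and 49.3 under siSmc3. Both control values lay above all 4 knockdown values, with a gap of 17.0 points between the nearest. Of 22555 regions called in all 6 libraries, 4.12% had both control values above all 4 others, and 9 regions (0.0399%) had them above by at least that gap. The gap was set by the values seen at this site, so that count is a description. The only peak of the second siSmc3 library here (136140756 to 136141250) did not touch that of the second control (136141466 to 136142362). In the first siSmc3 library the peak overlapping that control peak (136141515 to 136141944) stood at only 16.3. The site after the gene (136228476 to 136230410) stood at 74.8 and 80.1 in controls, 32.5 and 81.2 under siDRR, and 40.7 and 78.9 under siSmc3, and there the groups overlapped. The first library of each knockdown was the lower at the latter site. Ranks come from lists of different lengths, so they show the place of a site in each list and no change in accessibility.

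**Figure D4:**
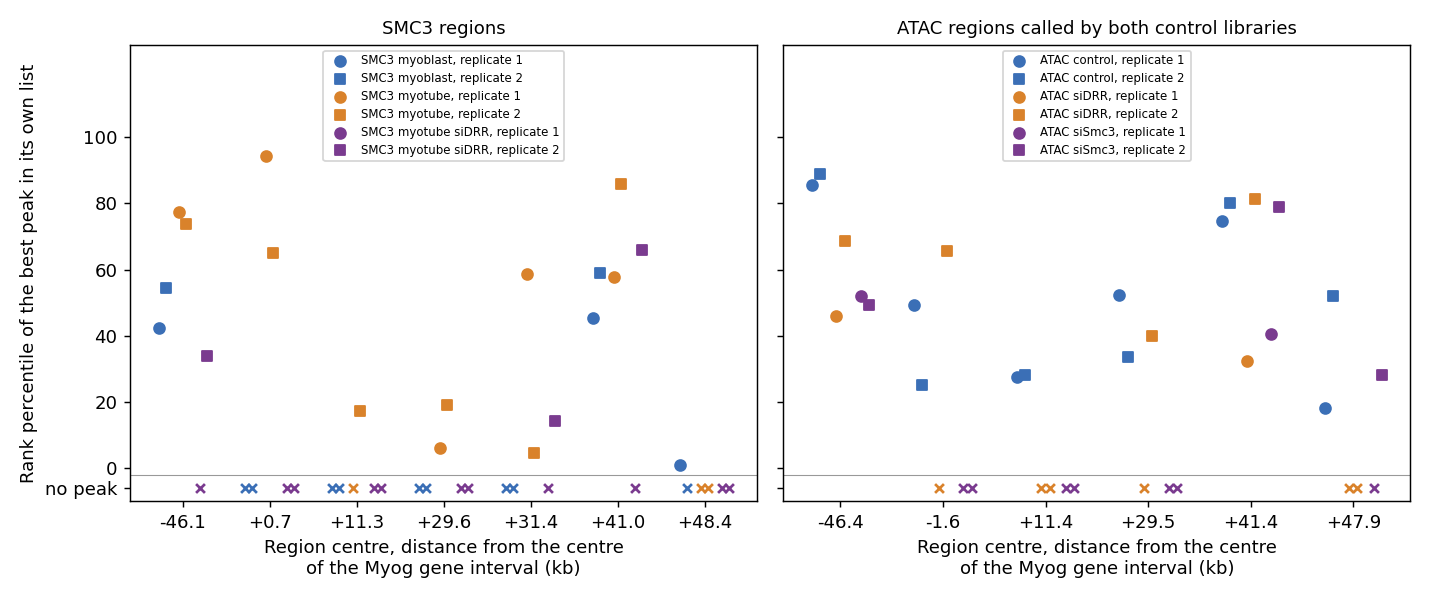
Rank percentile of the best peak in each library (y axis) for the 7 SMC3 regions of the window (left) and the 6 ATAC regions of both controls (right), ordered by distance of the region's centre from the centre of the Myog gene interval in kb (x axis); circles are replicate 1, squares replicate 2, and crosses mark libraries with no peak. At the SMC3 region of Myog only the myotube points stand above the line, at 94.5 and 64.9.

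The remaining peaks of the window recurred little. Of 21 merged ATAC regions, 11 were called in 1 library, 5 in 2, 3 in 3 and 2 in all 6. Single-library regions make up 60.1% of all ATAC regions. The number of ATAC peaks in the window was 8 and 10 in controls, 5 and 10 under siDRR, and 6 and 5 under siSmc3. Of tiles of the same length, 4.97% to 41.4% held at least as many peaks in the same list. The ATAC peaks of the window covered 8425 and 6352 bp in controls, 2144 and 5794 bp under siDRR, and 2930 and 3156 bp under siSmc3. Both control values lay above all 4 knockdown values, although the first control list was the shortest of the 6. Peaks of that list were wider, which adds to the bases covered. A width of 733 bp stood at its 53.4th percentile of widths, against 593 bp at the 53.7th in the second siDRR list. In the first siSmc3 list 592 bp stood at the 67.0th. How many other tiles show this order of covered bases was not counted, so it describes the window alone.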

How the data were processed

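Peak lists of 16 libraries were used, with mm9 as the build in the submitters' processing notes. MACS 1.4.2 and MACS2 are listed there as peak callers, Bowtie 1.1.1 and Bowtie2 2.2.4 as aligners, and cutadapt 1.12 for trimming, none of them tied to an assay. The control and threshold of peak calling, read filters and any ATAC read shift are not given in the sources used. The deposited score of each peak comes from the authors' peak caller, 1 list per library, on an unstated scale, and was used only to rank peaks within a list. The lowest score was 50 in SMC3, 30 in ATAC and 1.33 in ChIRP lists. The lists hold no read counts, so depth is unknown. The other 10 samples (inputs and LacZ) were not analysed here.

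Starts were made 1-based, and 788 peaks off the numbered, X and Y chromosomes were dropped. Lists were merged at 1 bp overlap over the whole genome with Python 3.11.15 and pandas 2.3.3. For overlaps, 250 bp were added to either side of a ChIRP summit. The code was tested on simulated lists with planted regions. Named were all peaks touching the gene interval, SMC3 regions of at least 2 libraries, ATAC regions of at least 5 libraries or of both libraries of a group and neither of another, and ChIRP sites of at least 2. Peaks outside this rule were named after their values were seen. The window, lists and comparisons were chosen with earlier results of these data known. Promoters of other myogenic genes could not be placed in mm9 and their peaks were not read here; 1 gene of the list is not reported here.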

Additional observations from a re-analysis of the deposited data

How the results depend on the processing

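Differences between groups are given as percentage points of libraries with a peak in the gene interval: 100 for SMC3 on differentiation, -100 for SMC3 under siDRR, -50 for ATAC under siDRR and -100 for ATAC under siSmc3. With lists of equal length (8384 SMC3 peaks, 58137 ATAC peaks, 3765 ChIRP summits) they became 50, -50, 0 and -50, and 1 ChIRP library in place of 3 had a summit there. Gained and lost regions of the window then numbered 1 in place of 2 for SMC3 under siDRR, 1 in place of 2 for ATAC under siDRR and 1 in place of 3 under siSmc3, and 0 regions of the SMC3 pattern had both pools in place of 1. With the better-scoring 50% the ATAC difference was 50 under siDRR, a reversal, and 0 under siSmc3. The window then held 1 changed SMC3 region on differentiation in place of 3, and 0 changed ATAC regions under either knockdown. With the window narrowed by 20 kb on each side, 1 ATAC region was lost under siDRR. Fewer peaks per list account for the missing calls by construction. Widening the interval by 2 kb, merging at 100 bp and widening summits by 100 or 500 bp changed none of the values they were run on by over 1.5 times.

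Leaving out each library in turn gave -100 to 0 for ATAC under siDRR, the ends coming from the second and the first siDRR library. The other differences at the interval did not move. Changed regions in the window ranged from 3 to 5 for SMC3 on differentiation (5 without the first myotube library). They ranged from 2 to 5 for SMC3 under siDRR (4 without the first myotube and 5 without the second siDRR library), and from 2 to 7 for ATAC under siDRR (5 without the first control, 4 and 7 without the first and second siDRR library). Under siSmc3 the range was 5 to 7, reached by leaving out any of the 4 libraries. Regions of the SMC3 pattern with both pools ranged from 0 to 4, an alternative chosen after seeing the data.

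With the replicate block, the differences within replicate numbers averaged 100, -100, -50 and -100, equal to the unpaired values by construction. Replicate differences correlated between groups over all regions at 0.0791 and 0.0364 in the SMC3 comparisons and 0.117 and 0.152 in the ATAC comparisons, and with 2 libraries a group this does not show that the numbers pair the samples.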
